A study of Mus musculus with 11 samples.

Results

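The hippocampal CA1 arm of the study was formed by 5 of the 11 RNA-seq libraries of the series, taken by their labelled tissue. It set 2 Dicer knockout (KO) mice, D5130 and D5133, against 3 control mice, D5134, D5135 and D5138, with 1 library per mouse. The KO mice were Camk2a-Cre;Dicer flox/flox, and the labels name the other mice as controls without giving their alleles. All mice were 13 to 14 weeks old, and all were male except the control D5138, a female. Camk2a-Cre is active in forebrain excitatory neurons, so glia, vascular cells and most inhibitory neurons in the same tissue are not its targets. Polyadenylated RNA was read with an unstranded kit, so reads of overlapping genes on opposite strands cannot be told apart.

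Dicer is the RNase that cuts hairpin precursors into mature miRNAs. A miRNA held by an Argonaute protein pairs through its seed, the bases near its 5′ end, with sites in the 3′ UTRs of mRNAs, and proteins of the GW182 family then recruit the enzymes that shorten the poly(A) tail. The CA1 is the output field of the hippocampus, where a layer of pyramidal neurons lies among interneurons, astrocytes, microglia, oligodendrocytes and vessels. RNA from all of these is read together here, so fewer cells of a type and less RNA per cell cannot be told apart.

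Levels are CPM, a gene's count scaled to a common library size after TMM correction of the library totals. Gene reads summed to between 24806581 and 35684618 per library, and mitochondrial genes took 4.52% to 4.97% of them. Per-library values are given in the order D5134, D5135 and D5138 for the controls and D5130 and D5133 for the KO libraries. The targeted gene, Dicer1 (GRCm38, chromosome 12, 104687742 to 104751952), had 74.2, 68.7 and 75.3 CPM in control mice and 73.2 and 71.8 CPM in KO mice, a log2 fold change of -0.0048 (SE 0.069, adjusted p by edgeR = 0.984). Reads of the whole gene were counted, so a lost exon would go unseen. The pyramidal marker Fibcd1 was counted at 162, 161 and 159 CPM in control mice and 126 and 154 CPM in KO mice, while Ttr of the choroid plexus, which lies beside the hippocampus, was at 2.88, 1.94 and 1.22 CPM in control mice and 2.48 and 0.679 CPM in KO mice. The labels do not say that mice were littermates or handled on 1 day, so p-values measure the spread between these 5 libraries.

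To ask which transcripts of the CA1 differ when Dicer is deleted in its excitatory neurons, each gene's counts in the KO mice were set against those in the control mice with edgeR. Of 18312 genes tested, 459 were higher in the KO libraries (2.51%) and 277 were lower (1.51%), together 4.02%, at an adjusted p under 0.05. The rises were the larger changes, with a median log2 fold change of 0.63 against -0.37 for the falls. A change of over 2-fold was reached by 120 of the genes that rose and 15 of those that fell. Over all tested genes the median log2 fold change was -0.0016, and both KO libraries lay above or below all 3 controls in 33.8% of genes, 3174 above and 3016 below. An unadjusted p under 0.05 was found for 3188 of the 18312 genes. With library totals in place of scaled sizes, 619 genes were higher and 195 lower.

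Level and direction went together. Among genes averaging 1 to 10 CPM, 161 rose and 19 fell of 5089, and among those averaging 10 to 100 CPM, 223 rose and 127 fell of 8170. Above 100 CPM the balance turned, with 52 higher and 125 lower of 2296. Protein-coding genes made up nearly all of the calls, 436 higher and 265 lower of 15061. Among genes named as antisense, 10 rose and 4 fell of 868. Without the female control D5138 the calls over all genes were 180 higher and 69 lower, without the KO mouse D5133 169 and 96, without D5130 265 and 143, and without the control D5135 371 and 188. A core of 92 rises and 44 falls passed whichever library was left out.

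**Figure D1:**
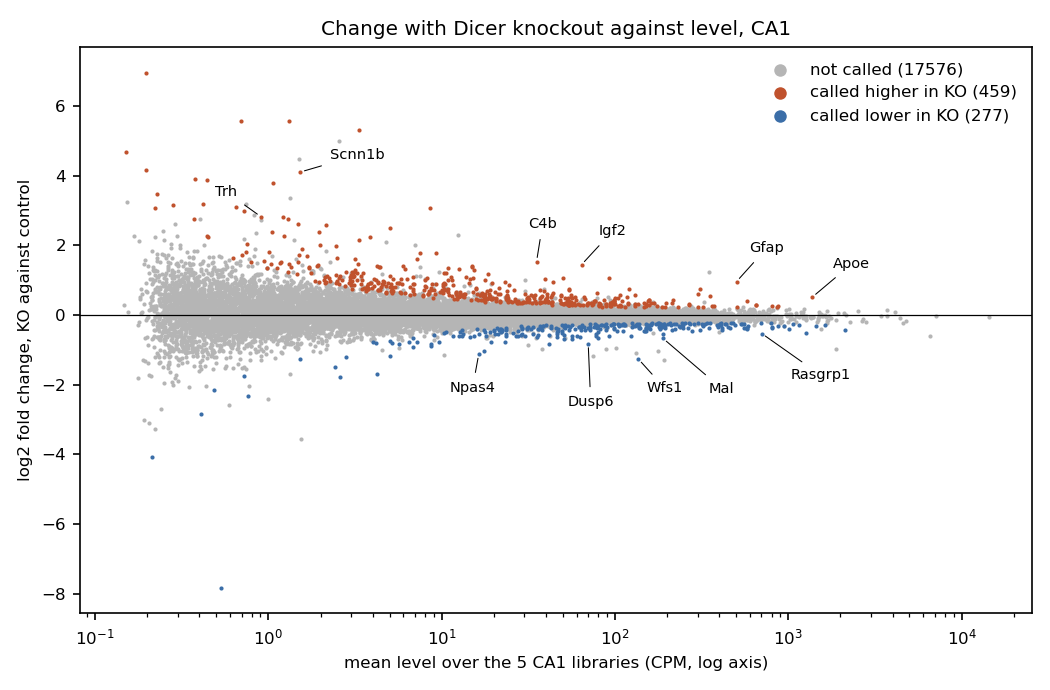
Each point is 1 tested gene, by its mean level over the 5 CA1 libraries (CPM, log axis) and its log2 fold change, KO against control. Orange points are the 459 genes called higher and blue points the 277 called lower by edgeR; blue points gather at the right, where 125 of the genes above 100 CPM fell and 52 rose.

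The largest rises among genes averaging at least 10 CPM were in genes of complement, microglia, fibroblasts and smooth muscle. C4b, the complement component that tags surfaces for clearance, was counted at 19.1, 20.7 and 20.3 CPM in control mice and 49.4 and 66.8 CPM in KO mice. Its log2 fold change of 1.53 (SE 0.11, adjusted p by edgeR = 1.25e-05) was the largest of this group, and every KO library stood above every control. Tyrobp, the adaptor that signals for the microglial receptor Trem2, was counted at 7.01, 7.79 and 12.3 CPM in control mice and 24.1 and 23.5 CPM in KO mice, or 1.39 (SE 0.21, adjusted p by edgeR = 0.00997). Its controls differed widely, and without the control D5135 Tyrobp did not pass (adjusted p by edgeR = 0.0515). Ly86, which partners a Toll-like receptor homologue, was flat in the controls at 6.90, 7.22 and 6.75 CPM and stood at 15.6 and 16.8 CPM in the KO libraries, a change of 1.22 (SE 0.12, adjusted p by edgeR = 9.51e-05).

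A further set were genes of connective tissue and contractile cells. Igf2, the growth factor made by the meninges and choroid plexus, was counted at 31.4, 38 and 44.4 CPM in control mice and 112 and 94.9 CPM in KO mice, a change of 1.45 (SE 0.13, adjusted p by edgeR = 0.00147). The fibroblast genes Aebp1, Col1a2 and Mgp rose by 1.41 (SE 0.17), 1.29 (SE 0.19) and 1.32 (SE 0.25), with adjusted p by edgeR of 0.00126, 0.00763 and 0.0317, and D5130 was the higher of the KO libraries in all 3. Col1a2 and Mgp did not pass without the control D5135, nor did Mgp without D5138. The smooth muscle genes Acta2, an actin, and Tagln, an actin-binding protein, rose by 1.16 (SE 0.16) and 1.08 (SE 0.14), with adjusted p by edgeR of 0.00419 and 0.000832, and in both D5133 was the higher. The remaining rises of this size were Ppl, a plakin of cell junctions, at 1.35, Itpr3, a calcium release channel, at 1.21, the amino acid transporter Slc6a20a at 1.10, the transglutaminase Tgm2 at 1.06 and the imprinted Nnat at 1.05, with adjusted p by edgeR of 0.000131 to 0.0219. Slc6a20a did not pass without the control D5134 or D5135. The list of meningeal fibroblast markers, which includes Col1a2, summed to 117 to 134 CPM in control mice and 272 to 312 CPM in KO mice. Its sum is thus not independent of the genes named here, and the part of meningeal tissue in their rise was not tested. Nnat was the most abundant of the 14 in the controls, at 75.8, 63.2 and 55.4 CPM in control mice and 143 and 126 CPM in KO mice.

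The largest falls were in genes of pyramidal neurons, neuronal signalling and myelin. Wfs1, an endoplasmic reticulum protein that marks CA1 pyramidal cells, was counted at 170.5, 149 and 215 CPM in control mice and 79.4 and 68.8 CPM in KO mice, a change of -1.26 (SE 0.18, adjusted p by edgeR = 0.0308). The KO libraries were the lowest, but the controls themselves differed widely. Apln, a peptide hormone precursor, stood at 20.1, 21.6 and 24.2 CPM in control mice and 10.8 and 10.5 CPM in KO mice, or -1.04 (SE 0.11, adjusted p by edgeR = 0.000188), and Penk, the precursor of the enkephalins, at 29.3, 25.9 and 28.3 CPM in control mice and 17.4 and 15.4 CPM in KO mice, or -0.76 (SE 0.10, adjusted p by edgeR = 0.000859). Dusp6, the phosphatase that shuts off ERK, was counted at 73.0, 87.0 and 94.2 CPM in control mice and 49.8 and 46.3 CPM in KO mice, a change of -0.82 (SE 0.097, adjusted p by edgeR = 0.000582). Slc17a6, a vesicular glutamate transporter that is rich in thalamic cells, fell by 0.83 on the log2 scale (SE 0.13, adjusted p by edgeR = 0.00652), and Npas4, an activity-regulated transcription factor, changed by -1.12 (SE 0.24, adjusted p by edgeR = 0.0469).

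The other 8 of the 14 falls were of similar or smaller size. The transcription factor Pou3f1 changed by -0.68, the mannosidase Man1a by -0.65, the collagen Col11a1 by -0.78, the potassium channel partner Kcnip4 by -0.64, the vesicle protein Sytl2 by -0.63 and the protocadherin Pcdhb3 by -0.63. Mal and Ugt8a, which build the myelin membrane, changed by -0.67 and -0.68. Of these 28 genes, 22 passed without D5130, 23 without D5133 or D5135, 24 without D5138 and 26 without D5134, and 22 with the spread taken from all 11 libraries. Exons of other genes overlap at least 10% of the exons of Igf2 (62.8%, Gm49394), Tagln (62.4%, Gm48529), Penk (14.3%, A830012C17Rik), Slc6a20a (13.8%, Gm17120) and Tgm2 (13.7%, Gm20412), so their counts are uncertain to that extent. C4b and Pcdhb3 have close relatives in the genome, whose reads the counting could split.

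**Figure D2:**
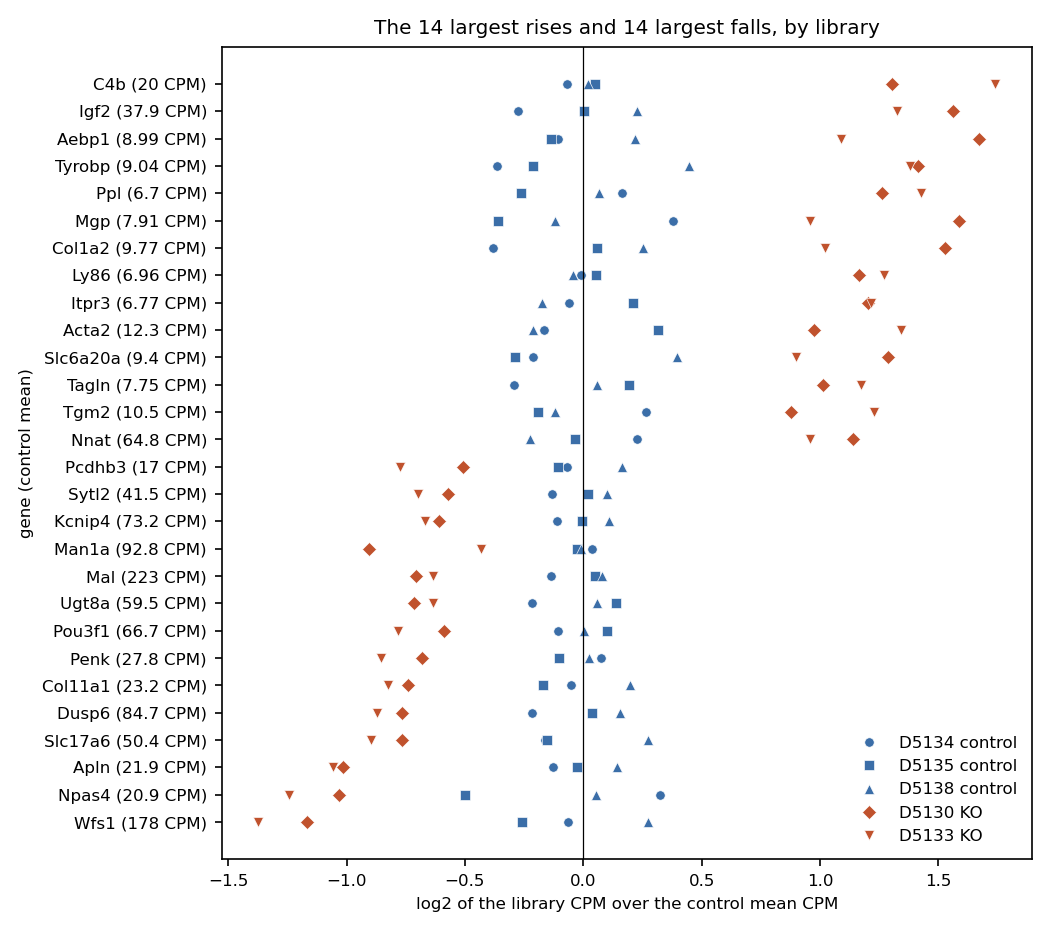
Each symbol is 1 CA1 library, placed by the log2 of its CPM over the mean CPM of the 3 controls (blue, controls; orange, KO), for the 14 largest rises and falls among called genes averaging at least 10 CPM without overlap. The control mean is given beside each gene, and the KO libraries sit apart from the controls in every row, as the rule that chose these genes requires.

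Dicer makes the mature miRNAs, so its partners and the genes that carry matches to miRNA seeds were examined. Among 18 tested genes of miRNA processing and Argonaute function, 3 rose and 0 fell, against 2.51% of all genes higher, with a median of 0.14. Ankrd52, a subunit of the phosphatase that resets Argonaute, was counted at 96.7, 95.8 and 92.8 CPM in control mice and 151 and 168 CPM in KO mice, a change of 0.75 (SE 0.064, adjusted p by edgeR = 1.91e-05), and passed with any 1 library left out. The GW182 proteins Tnrc6c and Tnrc6a rose by 0.34 (SE 0.062) and 0.31 (SE 0.071), with adjusted p by edgeR of 0.00716 and 0.0247, and Ago2 changed by 0.23 (SE 0.075, adjusted p by edgeR = 0.109). The count of 3 became 1 without D5138 or D5133. Host transcripts of miRNAs rose for 2 of 14: Mir124a-1hg, which carries the most neuronal of miRNAs, by 0.30 (SE 0.060, adjusted p by edgeR = 0.0114), and Mirg, the host of an imprinted miRNA cluster, by 0.37 (SE 0.092, adjusted p by edgeR = 0.0356). That count was 1 without D5135 or D5133 and 0 without D5138 or D5130.

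The mature miRNAs below are those whose seed matches are described next, from RefSeq on GRCm38, with the seed, bases 2 to 8, in capitals. Abundant in neurons or brain are let-7, miR-125, miR-29, miR-128 and miR-138. They had the highest median log2 fold changes of the neuronal and whole-brain families searched. For contrast miR-203 is shown, a miRNA of skin with the lowest median of the other-organ families searched. The choice of families thus followed the result.
mmu-let-7a-5p, chr13:48538239-48538260, minus strand: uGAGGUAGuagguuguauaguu
mmu-miR-125b-5p, chr9:41581940-41581961, plus strand: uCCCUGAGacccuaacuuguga
mmu-miR-29a-3p, chr6:31062673-31062694, minus strand: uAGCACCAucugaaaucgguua
mmu-miR-128-3p, chr1:128202404-128202424, plus strand: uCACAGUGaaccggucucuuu
mmu-miR-138-5p, chr8:94324312-94324334, plus strand: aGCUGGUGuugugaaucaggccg
mmu-miR-203-3p, chr12:112130927-112130948, plus strand: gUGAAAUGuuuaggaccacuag
Each has a seed of its own.

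The match searched for was the 8mer, the reverse complement of the seed followed by A, on the transcript strand of the longest annotated 3′ UTR of each protein-coding gene. It reads CTACCTCA for let-7, CTCAGGGA for miR-125, TGGTGCTA for miR-29, CACTGTGA for miR-128, CACCAGCA for miR-138 and CATTTCAA for miR-203. Of 14886 tested genes with a 3′ UTR, 3.59% held the let-7 match, 5.50% that of miR-125, 3.20% that of miR-29, 6.01% that of miR-128, 5.16% that of miR-138 and 5.05% that of miR-203. A match is a description of the sequence and does not show a working site. Mature sequences were found for 31 of 37 families, and miR-124, miR-145, miR-1, miR-133, miR-122 and miR-375 were not among them.

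Medians of genes with such matches lay close to that of all genes. The median log2 fold change over all 14886 genes was -0.0019, with 2.93% higher and 1.77% lower. The families with the highest medians were let-7 at 0.021 (534 genes), miR-125 at 0.019 (819 genes) and miR-29 at 0.016 (477 genes), followed by miR-128 and miR-138 at 0.0076 and 0.0071. Of the other neuronal and whole-brain families, miR-9 and miR-34 lay above 0, at 0.0053 and 0.0018, and the rest below 0. Among families with over 50 genes, the lowest were miR-155 and miR-21, both at -0.038, miR-203 at -0.032 and miR-103 at -0.028. Without D5130 these 4 were -0.0054, 0.0099, -0.0092 and -0.014, in the same order. Of miR-29 genes, 19 rose and 6 fell (3.98% and 1.26%), and of miR-138 genes 32 rose and 19 fell (4.17% and 2.47%). Those of let-7 gave 17 and 11 (3.18% and 2.06%), miR-125 17 and 16 (2.08% and 1.95%) and miR-128 17 and 18 (1.90% and 2.01%). Of miR-203 genes 13 rose and 33 fell (1.73% and 4.39%). Of the other-organ families, miR-205 gave 16 rises and 17 falls of 635 genes (2.52% and 2.68%). For miR-208 they were 4 and 3 of 96 (4.17% and 3.125%), and for miR-192 4 and 5 of 205 (1.95% and 2.44%). The share that rose was thus as high for miR-208, with few genes, as for miR-138.

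The medians were also read library by library. Log2 levels were taken relative to each gene's mean in the controls, which centres the control values. In genes with a let-7 match the medians were -0.0016, 0.015 and -0.011 in the controls and 0.010 and 0.033 in the KO libraries. The groups overlapped. For miR-125 the medians were -0.013, 0.014 and -0.0028 in the controls and 0.027 and 0.0035 in the KO libraries, and these overlapped as well. Those of miR-103 were -0.0078, 0.0096 and -0.0030 in the controls and -0.035 and -0.011 in the KO libraries, which lay below all controls. Without D5130 the miR-125 median was -0.0011, without D5133 that of let-7 was 0.00695, and the miR-29 median ran from 0.00785 without D5133 to 0.029 without D5130. No test was made of these medians, which describe the 5 libraries.

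The length of the 3′ UTR moved with the result. Genes were put into 3 classes of near equal size by UTR length. Of those with the shortest UTRs 3.36% rose and 0.745% fell, with a median of 0.020, and of those with the longest 2.42% rose and 2.82% fell, with a median of -0.020. Genes with a match have long UTRs, so the families were also read within each class. In the middle class, genes matched by none, 1, or 2 and more of the neuronal and whole-brain families had medians of -0.011, 0.0087 and 0.014. The same counts gave 0.017, 0.025 and 0.077 in the short class and -0.028, -0.022 and -0.016 in the long class. In the long class families of glia and other brain cells gave -0.017, -0.024 and -0.040, and those of other organs -0.018, -0.030 and -0.053. Families of other organs gave 0.019 and 0.028 for none and 1 in the short class and -0.00056 and -0.0039 in the middle class.

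**Figure D3:**
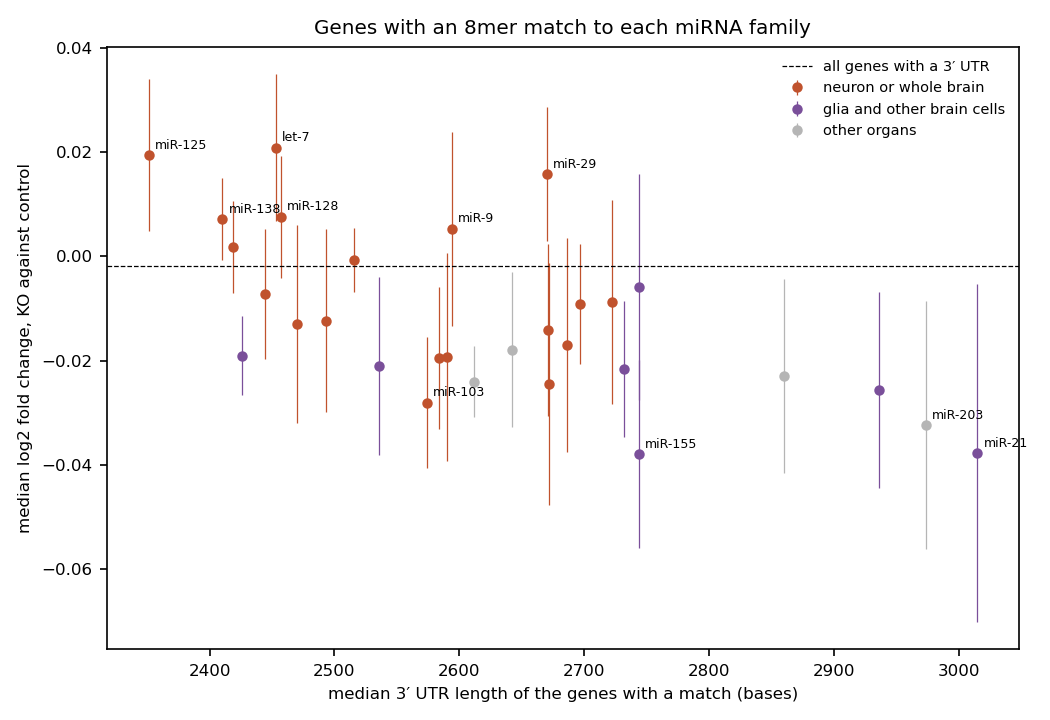
Each point is a miRNA family with over 50 matched genes, by the median 3′ UTR length of those genes (bases) and their median log2 fold change, KO against control; bars are the SD between libraries and the dashed line is the median of all genes with a 3′ UTR, -0.0019. Neuronal and whole-brain families range from 0.021 for let-7 to -0.028 for miR-103.

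Some genes that rose are shown with their matches, those of smallest p for let-7, miR-128, miR-138 and miR-125 and the next after Cst7 for miR-29. Genes that rose with a miR-203 match, among them Ankrd52, Ctss and Nos1, exist but are not shown. The genes shown can hold matches of other families too. Dnmt3a also holds those of miR-26, miR-30, miR-138 and miR-24, Mxd4 those of miR-218, miR-16 and miR-146, and Cemip that of miR-34. The stretches below are from GENCODE M21 transcripts, 5′ to 3′, with the 8mer in capitals and its GRCm38 position.
Plxnd1, let-7, chr6:115955369-115955376, minus strand: catatcccagaacaCTACCTCAtc
Ppl, miR-29, chr16:5086715-5086722, minus strand: caatgcctggctctTGGTGCTAga
Dnmt3a, miR-29, chr12:3911405-3911412, plus strand: ccaggggaggtagcTGGTGCTAgc
Cemip, miR-128, chr7:83933423-83933430, minus strand: aggcgagggtctcaCACTGTGAac
Gfap, miR-138, chr11:102888578-102888585, minus strand: tcagttcccacccaCACCAGCAct
Mxd4, miR-125, chr5:34175693-34175700, minus strand: gagcgacccagcgtCTCAGGGAcc
Plxnd1, a semaphorin receptor, was counted at 34.5, 29.6 and 30.0 CPM in control mice and 54.0 and 46.9 CPM in KO mice, a change of 0.69 (SE 0.092, adjusted p by edgeR = 0.000883). Dnmt3a, a DNA methyltransferase whose UTR holds 2 miR-29 matches, was counted at 87.4, 94.3 and 86.3 CPM in control mice and 127 and 142 CPM in KO mice, or 0.59 (SE 0.069, adjusted p by edgeR = 0.000356). In both genes the KO libraries stood above all controls. Cemip, a hyaluronan-binding protein, changed by 0.58 (SE 0.073, adjusted p by edgeR = 0.000657), and Mxd4, a Max-binding repressor, by 0.40 (SE 0.062, adjusted p by edgeR = 0.00245). Gfap, the astrocyte filament protein, is made by cells that Camk2a-Cre does not target, and it too holds a match.

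Targets reported for single miRNAs were counted as lists, against 2.51% of all genes higher. Of reported miR-29 targets 4 of 24 rose, Dnmt3a, Eln, Col1a2 and Ccnd2, of which the elastin gene Eln was counted at 6.18, 5.76 and 5.07 CPM in control mice and 11.7 and 11.2 CPM in KO mice, or 1.02 (SE 0.14, adjusted p by edgeR = 0.00126). Of reported miR-124 targets 4 of 23 rose, namely Vim at 0.57, Itgb1 at 0.48, Lamc1 at 0.38 and the splicing regulator Ptbp1 at 0.36, and this count was 2 without D5138 and 0 without D5133. These members include filament, adhesion and matrix genes that glia and vessels also express. With the spread of all 11 libraries 24 miR-29 targets gave 2 rises, and with library totals 7. Ccnd2 was the single let-7 target to pass of 23, at 0.58 (SE 0.11, adjusted p by edgeR = 0.0258), and did not pass without D5130, D5133 or D5138. Of 14 miR-132 and miR-212 targets edgeR called 0, with 0 by DESeq2 and 0 at an unadjusted p under 0.05.

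Genes of the pyramidal neurons themselves were then taken as groups. Counts of calls in this and all later groups stand against 2.51% of all genes higher and 1.51% lower. Of 11 CA1 pyramidal markers, 3 were lower and 0 higher, with a median of -0.48, or -0.24 without D5130, and 10 of 11 log2 fold changes below 0. Pou3f1, a POU transcription factor, was counted at 61.9, 71.4 and 66.7 CPM in control mice and 44.3 and 38.7 CPM in KO mice, or -0.68 (SE 0.085, adjusted p by edgeR = 0.000582). Man1a, a Golgi mannosidase, was flat in the controls at 95.1, 91.1 and 92.2 CPM and stood at 49.5 and 68.8 CPM in the KO libraries, or -0.65 (SE 0.12, adjusted p by edgeR = 0.0151). Ccn3, a secreted matrix protein, did not pass. It was counted at 183, 157 and 138 CPM in control mice and 155 and 172 CPM in KO mice, with overlapping groups. The count was 2 to 3 with any 1 library left out. Of the 5 fits that left out 1 library, Wfs1 passed in 2, those without D5135 and without D5138. Summed, the markers took 814 to 849.9 CPM in control mice and 591 to 660.5 CPM in KO mice.

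Markers of neighbouring fields gave single calls. Of 5 CA2 markers Rgs14, a regulator of G protein signalling, was lower at -0.34 (SE 0.070, adjusted p by edgeR = 0.0151), and of 6 CA3 markers edgeR called 0, with 0 by DESeq2 and 1 at an unadjusted p under 0.05. Among 7 dentate granule markers the channel Trpc6 was higher at 0.61 (SE 0.10, adjusted p by edgeR = 0.00437). Of 5 thalamus markers, Slc17a6 was the member that fell, from 45.0, 45.2 and 60.8 CPM to 29.6 and 27.1 CPM. The medians of these lists were -0.12 for CA2, -0.10 for CA3, 0.044 for the dentate gyrus and 0.052 for the thalamus. The call of Rgs14 was lost without D5130, D5133 or D5138, that of Trpc6 without D5133 and that of Slc17a6 without D5130 or D5133. Summed, the thalamus markers took 71.9 to 92.6 CPM in control mice and 57.6 to 58.9 CPM in KO mice. Slc17a6 is in that sum and holds a large share of it, while 3 of the 5 markers had log2 fold changes above 0. The part of thalamic tissue in the falls of neuronal genes was not tested. Among 18 interneuron markers Nos1 rose by 0.51 (SE 0.080) and Cck fell by 0.31 on the log2 scale (SE 0.075), with adjusted p by edgeR of 0.00279 and 0.0331. With the spread taken from all 11 libraries the calls of Rgs14, Trpc6, Nos1 and Cck were lost, and that of Cck also without D5133, D5134 or D5138.

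Signalling that follows neuronal activity was lower in single genes. Of 19 genes of the ERK pathway and its feedback, Dusp6 and Rasgrp1 fell and the median was -0.20. Rasgrp1, an activator of Ras that is abundant in CA1 cells, was counted at 764, 805 and 839 CPM in control mice and 539 and 572 CPM in KO mice, a change of -0.53 (SE 0.058, adjusted p by edgeR = 0.000188), and both calls held with any 1 library left out. With the spread of all 11 libraries Dusp6 did not pass (adjusted p by edgeR = 0.212). Of 22 immediate early genes Npas4 and Ier5 passed, with a median of -0.43 (-0.17 without D5133, -0.76 without D5130), and the count was 1 without D5134 and 0 without D5138 or D5133, and 0 with library totals. Arc was counted at 257, 189 and 308 CPM in control mice and 154 and 52.4 CPM in KO mice and Fos at 14.7, 7.58 and 17.8 CPM in control mice and 7.91 and 3.91 CPM in KO mice. In both, the controls differed from each other by more than 1.5-fold and D5133 was the lowest library. Their log2 fold changes of -1.28 and -1.15 did not pass (adjusted p by edgeR = 0.446 and 0.424).

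Among neuropeptide genes, 3 of 25 fell and 1 rose, against 1.51% of all genes lower and 2.51% higher. Apln, Penk and Cck were lower. Trh, the precursor of thyrotropin-releasing hormone, went the other way, from 0.152, 0.243 and 0.370 CPM to 1.96 and 1.80 CPM, or 2.83 (SE 0.40, adjusted p by edgeR = 0.00144), so both KO libraries stood far above controls that held few reads.

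Channel and synapse genes changed one by one. Of 41 potassium channel genes 6 fell and 1 rose, against 1.51% of all genes lower and 2.51% higher. The median was -0.14, or -0.065 without D5133 and -0.062 without D5135. Kcnh7, an ether-a-go-go related channel, was counted at 89.0, 88.0 and 91.6 CPM in control mice and 56.3 and 62.8 CPM in KO mice, or -0.59 (SE 0.071, adjusted p by edgeR = 0.000433). Kcnip4 and Kcnd2, the partner and the pore of A-type current, fell from 67.7, 72.9 and 79.0 CPM to 48.0 and 46.0 CPM and from 165, 177 and 188 CPM to 131 and 137 CPM, with adjusted p by edgeR of 0.000579 and 0.00426. Kcnab1, an auxiliary subunit, and Kcns1, a silent subunit, changed by -0.46 and -0.88, with adjusted p by edgeR of 0.00255 and 0.00296. The falls numbered 5 to 7 with any 1 library left out, and the rise was lost without D5130 or D5138.

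Sodium and calcium channel genes fell for 4 and rose for 2 of 28, against 1.51% of all genes lower and 2.51% higher. Scn1a and Scn3b, subunits of neuronal sodium channels, changed by -0.36 and -0.34, with adjusted p by edgeR of 0.00541 and 0.0202, while Scn7a, which glia and other non-neuronal cells also express, rose by 1.13 (SE 0.23, adjusted p by edgeR = 0.0155). The falls numbered 1 without D5138 and 2 without D5133, and the rises 0 without either. The epithelial sodium channel stands apart in size. Scnn1g went from 0.682, 0.879 and 0.626 CPM to 4.03 and 3.55 CPM, the acid-sensing Asic4 from 6.86, 5.91 and 5.95 CPM to 10.4 and 11.3 CPM and Scnn1a from 9.67, 9.61 and 12 CPM to 15.9 and 14.3 CPM, with adjusted p by edgeR of 0.000192, 0.00547 and 0.0356. With Scnn1b they make 4 called of 10 in that family, or 2 without D5133.

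Of 28 postsynaptic density genes 5 fell and 0 rose, against 1.51% of all genes lower, with a median of -0.17. Itpka, a kinase of dendritic spines, was counted at 168, 167 and 177 CPM in control mice and 137 and 127 CPM in KO mice, or -0.37 (SE 0.062, adjusted p by edgeR = 0.00465), and the adhesion protein Lrrtm2 changed by -0.34 (SE 0.071, adjusted p by edgeR = 0.0151). The count was 2 without D5135 or D5130 and 1 without D5138 or D5133. Glutamate receptor genes gave 1 call of 22, the metabotropic Grm2, which rose by 0.44 (SE 0.075, adjusted p by edgeR = 0.00445). Synaptic vesicle genes gave 1 rise and 2 falls of 26: Syn3 at 0.43, Syt2 at -0.49 and Vamp1 at -0.29, with adjusted p by edgeR of 0.00485, 0.019 and 0.024. With library totals the postsynaptic falls numbered 2, and with the spread of all 11 libraries Syn3 did not pass. The vesicle rise was lost without D5130 and both vesicle falls without D5133 or D5138.

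Myelin genes, the products of oligodendrocytes, had many falls. Of 18 genes of myelin and mature oligodendrocytes 11 fell and 0 rose, against 1.51% of all genes lower, with a median of -0.44. Mal was counted at 202, 230.5 and 235 CPM in control mice and 136 and 143 CPM in KO mice, Cldn11, which seals the myelin sheath, at 134, 145 and 152 CPM in control mice and 95.0 and 95.6 CPM in KO mice, and Mog, on its outer face, at 51.4, 56.5 and 60.4 CPM in control mice and 39.6 and 39.2 CPM in KO mice. All 3 were below every control in both KO libraries. Their log2 fold changes were -0.67 (SE 0.070), -0.59 (SE 0.068) and -0.51 (SE 0.083), with adjusted p by edgeR of 0.000131, 0.000265 and 0.00333. Mbp, a main protein of compact myelin, changed by -0.33 (adjusted p by edgeR = 0.0296), and Cnp by -0.42 (adjusted p by edgeR = 0.00297). Apod, at 0.30, and Hapln2, at 0.022, did not pass. The 11 falls became 6 without D5130 or D5133.

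Among the controls the summed myelin genes were lowest in D5134, and they took 4176 to 5046 CPM in control mice and 3458 to 3486 CPM in KO mice. A few genes of earlier stages of the lineage were lower too. Enpp6, which marks newly forming oligodendrocytes, went from 5.31, 7.4 and 6.60 CPM to 2.80 and 2.92 CPM, and Bcas1, of early myelinating cells, from 154, 171 and 187 CPM to 130 and 117 CPM, with adjusted p by edgeR of 0.00322 and 0.00631. The lineage factors Sox10 and Olig1 changed by -0.40 and -0.33 (adjusted p by edgeR = 0.0284 and 0.0488), the 2 calls of 12 precursor markers, and the count was 1 without D5134 or D5135 or D5130 and 0 without D5138 or D5133, and 0 with the spread of all 11 libraries. Of 24 genes of cholesterol synthesis, whose product myelin needs, Sqle, Insig1 and Hmgcs1 fell by 0.35, 0.45 and 0.26 on the log2 scale, with adjusted p by edgeR of 0.0122, 0.0126 and 0.0203. The median was -0.21, 23 of 24 members lay below 0, and the count was 0 without D5138 or D5133.

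**Figure D4:**
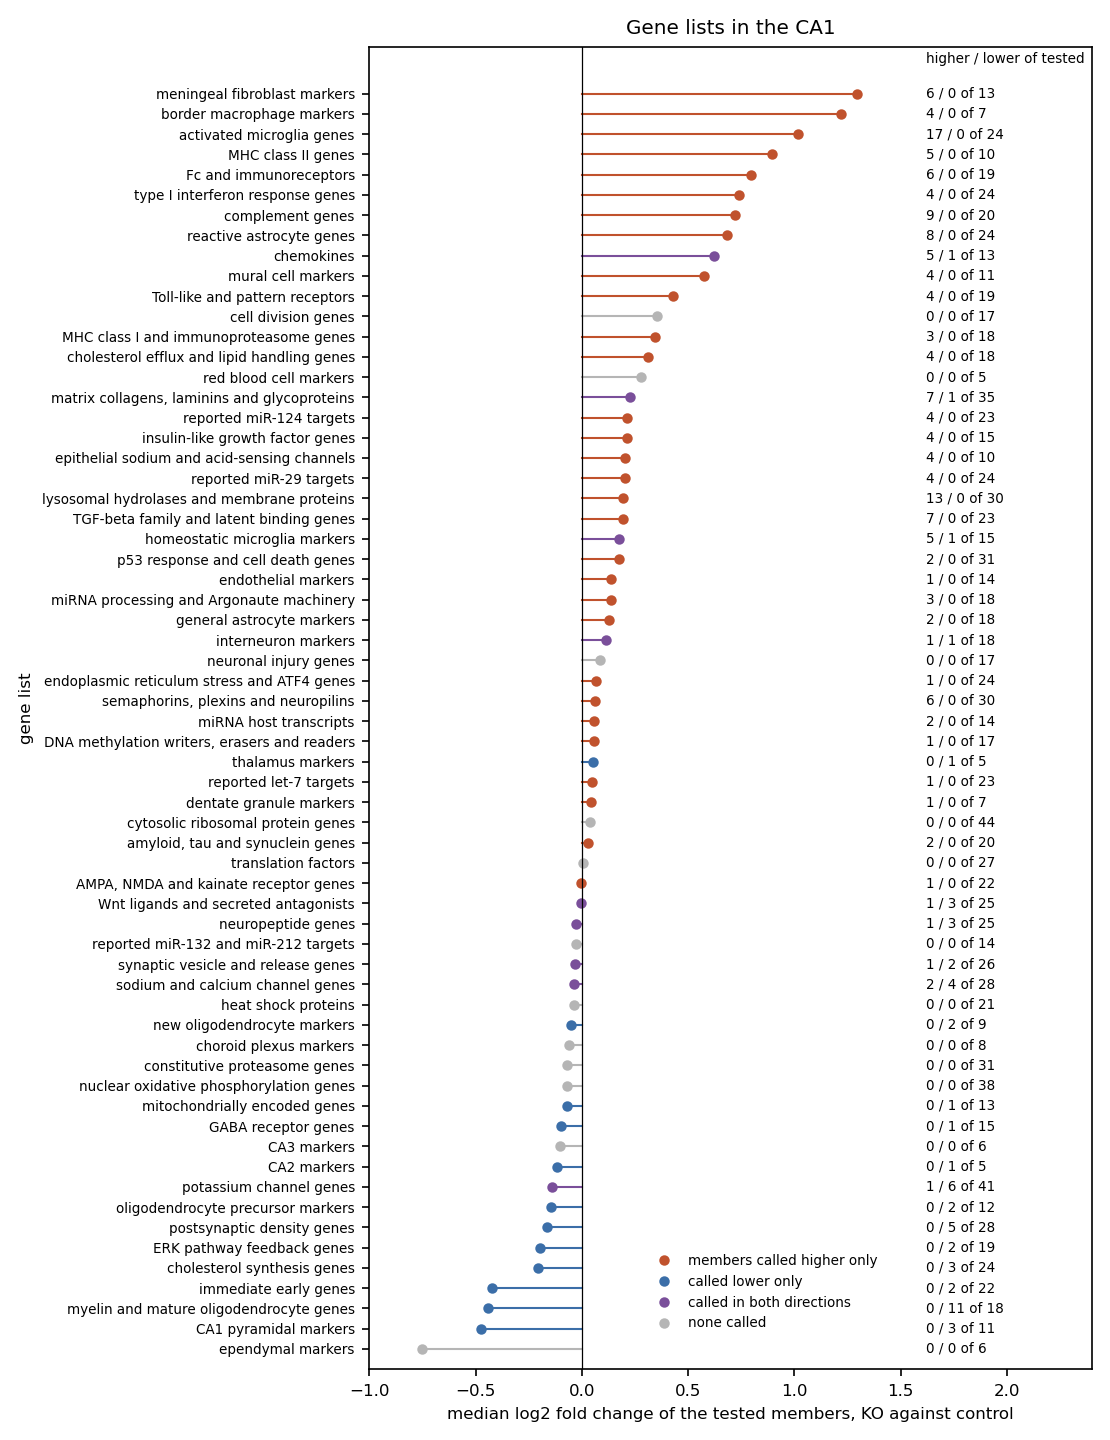
Each row is a gene list with at least 5 tested members, placed by the median log2 fold change of those members, KO against control, with the members called higher and lower at the right. Orange marks lists with calls upward only, blue downward only, purple both and grey none; meningeal fibroblast markers stand highest at 1.29 and myelin genes, with 11 falls, and CA1 pyramidal markers are near the bottom at -0.44 and -0.48.

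Immune genes were read by cell type and by function. Homeostatic microglia markers, the genes of resting microglia, were mixed, with 5 higher and 1 lower of 15 and a median of 0.18. Over all genes 2.51% were higher and 1.51% lower. P2ry12, the purinergic receptor of resting microglia, was counted at 23, 26.1 and 22.2 CPM in control mice and 17.3 and 23.6 CPM in KO mice, Tmem119 at 21.8, 18.6 and 19.1 CPM in control mice and 21.3 and 19.7 CPM in KO mice and Cx3cr1 at 37.4, 42.7 and 39.9 CPM in control mice and 38.1 and 53.2 CPM in KO mice. In all 3 the groups overlapped. Fcrls rose from 15.1, 15.1 and 15.1 CPM to 23.9 and 25.7 CPM, or 0.72 (SE 0.095, adjusted p by edgeR = 0.000851), and Olfml3 by 0.59 (adjusted p by edgeR = 0.0107). Mef2c, which neurons also express, fell by 0.39 on the log2 scale (SE 0.083, adjusted p by edgeR = 0.0177), a call lost with the spread of all 11 libraries and without D5133, D5134 or D5138. The list's median was 0.025 without D5133 and 0.27 without D5130. The 5 rises became 3 without D5138 and 1 without D5133.

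Of the activated state, 17 of 24 microglia genes rose, against 2.51% of all genes higher, with a median of 1.02, or 0.62 among members averaging 1 CPM or more, and the count was 13 to 17 with any 1 library left out. Of 19 Fc and immunoreceptor genes 6 rose and 0 fell. Lag3, an inhibitory receptor, was counted at 4.59, 4.82 and 4.72 CPM in control mice and 14.6 and 17.5 CPM in KO mice, or 1.76 (SE 0.14, adjusted p by edgeR = 1.21e-05), and Fcgr3, an IgG receptor, at 7.39, 8.77 and 7.09 CPM in control mice and 12.8 and 14.8 CPM in KO mice, or 0.83 (SE 0.14, adjusted p by edgeR = 0.00415). Of 19 Toll-like and pattern receptors 4 rose, among them the lipopolysaccharide co-receptor Cd14, from 1.90, 2.12 and 2.08 CPM to 4.55 and 5.03 CPM, or 1.23 (SE 0.19, adjusted p by edgeR = 0.00279). The Fc receptor count was 3 without D5138 or D5130 and 2 without D5133. The Toll-like receptor count was 3 to 4 with any 1 library left out, and 2 by DESeq2.

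Of 20 chemokine genes 13 had enough reads to test, and these gave 5 rises and 1 fall, against 2.51% of all genes higher and 1.51% lower. A gene could enter the test on reads of the 2 KO libraries alone. The median was 0.62, but 0.037 among members with a mean of at least 1 CPM, where 3 rose. Ccl3 and Ccl4, chemokines that attract macrophages, rose from under 0.3 CPM in every control, Ccl3 to 1.34 and 1.72 CPM and Ccl4 to 0.729 and 1.28 CPM, with adjusted p by edgeR of 0.00196 and 0.00268. The scavenger chemokine Cxcl16 rose by 1.44 (SE 0.27, adjusted p by edgeR = 0.00781). The fall was in Cx3cl1, the chemokine by which neurons address microglia, from 162, 166 and 176 CPM to 145 and 129.8 CPM, or -0.29 (SE 0.066, adjusted p by edgeR = 0.0247). The rises numbered 2 without D5133, and 3 by DESeq2, and the fall was lost without D5133 or D5138.

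Of 30 lysosomal genes 13 rose and 0 fell, against 2.51% of all genes higher, with a median of 0.19. The protease Ctsd was counted at 300.3, 289 and 306 CPM in control mice and 419 and 458 CPM in KO mice, or 0.55 (SE 0.057, adjusted p by edgeR = 0.000131), and progranulin, Grn, at 57.4, 53.7 and 57.2 CPM in control mice and 79.3 and 82.5 CPM in KO mice, or 0.53 (SE 0.068, adjusted p by edgeR = 0.000748). The cathepsins Ctss and Ctsz rose by 0.76 and 0.61 (adjusted p by edgeR = 0.00083 and 0.00217), while the cathepsin Ctsb was counted at 556, 550 and 574 CPM in control mice and 562 and 548 CPM in KO mice. The 13 rises became 5 without D5138 and 4 without D5133. Exons of another gene overlap Ctsd (34.4%, Gm49369).

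Interferon response genes rose for 4 of 24, against 2.51% of all genes higher. Their median was 0.74, or 0.42 for those with a mean of at least 1 CPM. Ifitm3, which blocks viral entry, went from 3.11, 4.34 and 4.72 CPM to 7.15 and 8.30 CPM and Ifit3 from 1.44, 1.52 and 2.33 CPM to 3.88 and 3.79 CPM, with adjusted p by edgeR of 0.0125 and 0.0188, and the count was 2 without D5134 or D5138, 1 without D5130 and 0 without D5133. Of 18 class I antigen presentation genes 3 rose, H2-K1 at 0.53, H2-D1 at 0.47 and B2m at 0.43 (adjusted p by edgeR = 0.00994, 0.0173 and 0.0262), and the count was 1 without D5138 and 0 without D5133. The H2 genes are near copies of each other, so their counts are uncertain.

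Defining markers of blood leukocytes were at or near 0. Of 12 T cell markers 4 had enough reads to test and edgeR called 0, with 0 by DESeq2 and 1 at an unadjusted p under 0.05, and the summed list took 2.82 to 3.45 CPM in control mice and 3.03 to 4.00 CPM in KO mice. Cd3e, Cd3d and Cd3g had 0 reads in 4, 3 and 4 of the 5 libraries. Of 7 neutrophil and monocyte markers 2 were tested and edgeR called 0, with 0 by DESeq2 and 1 at an unadjusted p under 0.05. Ly6g had 0 reads in all 5 libraries, and Ccr2 was counted at 0.190, 0.0910 and 0.0854 CPM in control mice and 0.408 and 0.599 CPM in KO mice, or 2.04 (SE 0.62, adjusted p by edgeR = 0.0836). Markers of the macrophages that border the brain did rise, 4 of 7 tested, with Cd163 going from 1.29, 1.15 and 1.02 CPM to 2.45 and 3.67 CPM and Mrc1 from 1.97, 1.33 and 2.59 CPM to 4.64 and 4.55 CPM (adjusted p by edgeR = 0.0099 and 0.0122), and the count was 2 without D5138 and 1 without D5130 or D5133. The border macrophage list summed to 17.6 to 22.2 CPM in control mice and 32.9 to 36.6 CPM in KO mice.

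Astrocytes respond to injury with a set of reactive genes. Of 24 reactive astrocyte genes 8 rose, with a median of 0.68, and of 18 general astrocyte markers 2, with a median of 0.13. Over all genes 2.51% were higher. Aqp4, the water channel of astrocyte endfeet, was counted at 112, 116 and 128 CPM in control mice and 135 and 161 CPM in KO mice, or 0.32 (SE 0.081, adjusted p by edgeR = 0.0437), and Mlc1 changed by 0.24 (SE 0.056, adjusted p by edgeR = 0.0306). The reactive count was 5 without D5138 or D5130 and 2 without D5133, and the general count 1 without D5134 and 0 without D5135 or D5138 or D5133, and 6 with library totals. Among 18 genes of lipid handling 4 rose. Apoe, the main lipid carrier of astrocytes and microglia, was counted at 1136, 1173 and 1219 CPM in control mice and 1617 and 1752 CPM in KO mice, or 0.52 (SE 0.056, adjusted p by edgeR = 0.000183), and the lipid-binding Fabp7 and Pltp rose by 0.60 and 0.34 (adjusted p by edgeR = 0.0126 and 0.0242), a count that was 1 without D5138 and 2 without D5130 or D5133.

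Vessel and meningeal genes were read in the same way, against 2.51% of all genes higher. All 13 meningeal fibroblast markers had log2 fold changes above 0, with a median of 1.29, and 6 passed, or 3 without D5130 and 3 with the spread of all 11 libraries. Crabp2, a retinoic acid binding protein of the meninges, was counted at 1.10, 0.516 and 1.11 CPM in control mice and 4.55 and 2.67 CPM in KO mice, or 2.01 (SE 0.33, adjusted p by edgeR = 0.00437), and Ogn, a matrix proteoglycan, at 7.36, 6.25 and 9.54 CPM in control mice and 15.2 and 13.7 CPM in KO mice, or 0.90 (SE 0.16, adjusted p by edgeR = 0.00638). Summed, the list was over 2-fold higher in each KO library than in any control. Dcn and Col1a1, among the most abundant members, went from 33.0, 16.6 and 15.1 CPM to 44.7 and 41.2 CPM and from 6.75, 15.9 and 7.83 CPM to 16.3 and 20.3 CPM without passing, with 1 control close to the KO libraries in each, D5134 in the first and D5135 in the second. How much meninges each sample held was not tested.

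Mural cell markers, of pericytes and vascular smooth muscle, rose for 4 of 11, with a median of 0.58, and the count was 4 to 5 with any 1 library left out. They summed to 187 to 205 CPM in control mice and 265 to 266 CPM in KO mice. Myh11, the smooth muscle myosin, was counted at 10.2, 9.86 and 11.6 CPM in control mice and 18.4 and 21.4 CPM in KO mice, or 0.91 (SE 0.12, adjusted p by edgeR = 0.000826), and Vtn, of pericytes, at 44.0, 49.8 and 46.6 CPM in control mice and 76.0 and 63.5 CPM in KO mice, or 0.58 (SE 0.086, adjusted p by edgeR = 0.00194). Endothelial markers gave 1 call of 14, Pecam1 at 0.42 (SE 0.11, adjusted p by edgeR = 0.0393), and that was 2 without D5134 and 0 without D5135 or D5138 or D5130 or D5133. They summed to 239.7 to 253 CPM in control mice and 266 to 275 CPM in KO mice.

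Genes of the extracellular space moved beside these markers. Of 35 matrix genes 7 rose and 1 fell, against 2.51% of all genes higher and 1.51% lower. Fn1, fibronectin, was counted at 63.6, 66.1 and 63.3 CPM in control mice and 90.4 and 109 CPM in KO mice, or 0.63 (SE 0.078, adjusted p by edgeR = 0.000582), and Lamb2, a laminin of vessel basement membranes, at 29.0, 27.5 and 28.6 CPM in control mice and 40.4 and 42.2 CPM in KO mice, or 0.54 (SE 0.080, adjusted p by edgeR = 0.00189). Col16a1 rose by 0.72 (SE 0.094, adjusted p by edgeR = 0.00081), and Col11a1, which neurons also express, was the fall, from 22.4, 20.6 and 26.6 CPM to 13.9 and 13.1 CPM. The rises numbered 4 without D5138. Of 15 insulin-like growth factor genes Igf2, Igfbp2, Igfbp5 and Igf2r rose; the binding protein Igfbp2 went from 12.1, 14.1 and 16.8 CPM to 30.4 and 23.5 CPM, or 0.91 (SE 0.14, adjusted p by edgeR = 0.00393), and Igfbp5 from 189, 190.3 and 200.2 CPM to 248 and 238 CPM, or 0.33 (SE 0.057, adjusted p by edgeR = 0.00483). Of 23 genes of the TGF-beta family and its latent carriers 7 rose, among them Tgfb1 from 3.30, 4.03 and 3.59 CPM to 6.97 and 5.95 CPM, its microglial activator Nrros from 9.82, 7.07 and 7.71 CPM to 14.9 and 12.2 CPM and Bmp6 from 3, 2.43 and 3.19 CPM to 6.07 and 5.71 CPM, with adjusted p by edgeR of 0.0142, 0.0152 and 0.00552, and the count was 2 without D5138 or D5130. How far these follow the meningeal and mural markers was not tested.

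Semaphorins and their receptors rose for 6 of 30, against 2.51% of all genes higher, with a median near that of all genes, 0.062. Plxnd1 and Plxna3, receptors for class 3 semaphorins, and Plxnb2 rose by 0.69 (SE 0.092), 0.58 (SE 0.093) and 0.31 (SE 0.063), with adjusted p by edgeR of 0.000883, 0.00331 and 0.0131. Plxna3 was counted at 40.8, 35.3 and 32.3 CPM in control mice and 52.7 and 54.9 CPM in KO mice. The ligand Sema4g rose by 0.63 (SE 0.12, adjusted p by edgeR = 0.0186), and the count was 3 without D5138 or D5130 and 2 without D5133.

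To ask where the CA1 response differs from that of the neocortex, the KO effects were compared in a single edgeR fit of the 11 libraries, 4 of the 7 mice having given both tissues. The difference passed for 17 of 19241 genes (0.0884%), 11 with a more positive and 6 with a more negative effect in the CA1, and 1836 had an unadjusted p under 0.05. With animal as a replicate block, 34 were more positive and 73 more negative. The counts were 0 to 19 and 0 to 13 with any 1 library left out, and both were 1 or 0 without D5129, D5130, D5132 or D5133 of the neocortex or D5130 of the CA1. Without D5138 of the CA1 they were 2 and 1, without its D5133 2 and 4, without its D5134 19 and 13, without its D5135 7 and 5, and without D5134 or D5135 of the neocortex 12 and 11 or 7 and 7. With RLE size factors 11 and 10 passed. The tissues were made with different kits, unstranded and stranded.

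Microglial genes were among the differences. C1qc, a chain of complement C1q, was counted at 50.3, 53 and 45.5 CPM in neocortex of control mice and 59.1, 62.4 and 64.7 CPM in that of KO mice. In the CA1, scaled together with the neocortex, it stood at 26.5, 28.4 and 27.2 CPM in control mice and 54.1 and 58.35 CPM in KO mice. The KO effect was 1.04 (SE 0.077) in the CA1 and 0.33 (SE 0.067) in the neocortex, a difference of 0.71 (SE 0.10, adjusted p by edgeR = 0.0212). The lysozyme Lyz2 had effects of 1.78 (SE 0.14) in the CA1 and of 0.65 (SE 0.12) in the neocortex, a difference of 1.13 (SE 0.19, adjusted p by edgeR = 0.0315). Igfbp2, Itpr3 and Lamb2 rose in the CA1 by 0.91 (SE 0.13), 1.21 (SE 0.14) and 0.54 (SE 0.072), against neocortex values of -0.14 (SE 0.11), 0.081 (SE 0.13) and -0.023 (SE 0.063), each with an adjusted p by edgeR of 0.0315 for the difference. Hap1, the huntingtin-associated protein, had effects of opposite sign, 0.33 (SE 0.071) in the CA1 and -0.26 (SE 0.064) in the neocortex, a difference of 0.58 (SE 0.095, adjusted p by edgeR = 0.0315).

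Of the negative differences, that of Rasgrp1 had the smallest p. It was counted at 592, 561 and 532 CPM in neocortex of control mice and 593, 569 and 591 CPM in that of KO mice, with an effect of 0.058 (SE 0.052) there and -0.53 (SE 0.059) in the CA1, a difference of -0.59 (SE 0.078, adjusted p by edgeR = 0.0133). Arap2, a GTPase-activating protein, changed by -0.36 (SE 0.059) in the CA1 and 0.11 (SE 0.051) in the neocortex, a difference of -0.47 (SE 0.078, adjusted p by edgeR = 0.0315). The semaphorin receptor Plxna4 had an effect of 0.43 (SE 0.062) in the neocortex and of -0.12 (SE 0.069) in the CA1, a difference of -0.55 (SE 0.092, adjusted p by edgeR = 0.0315). Fbxo32, a ubiquitin ligase subunit, differed by -0.65 (SE 0.12, adjusted p by edgeR = 0.0421), but with animal as a block its adjusted p was 0.0506. Shisa7, next in order, did not pass at -0.39 (SE 0.073, adjusted p by edgeR = 0.0515).

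**Figure D5:**
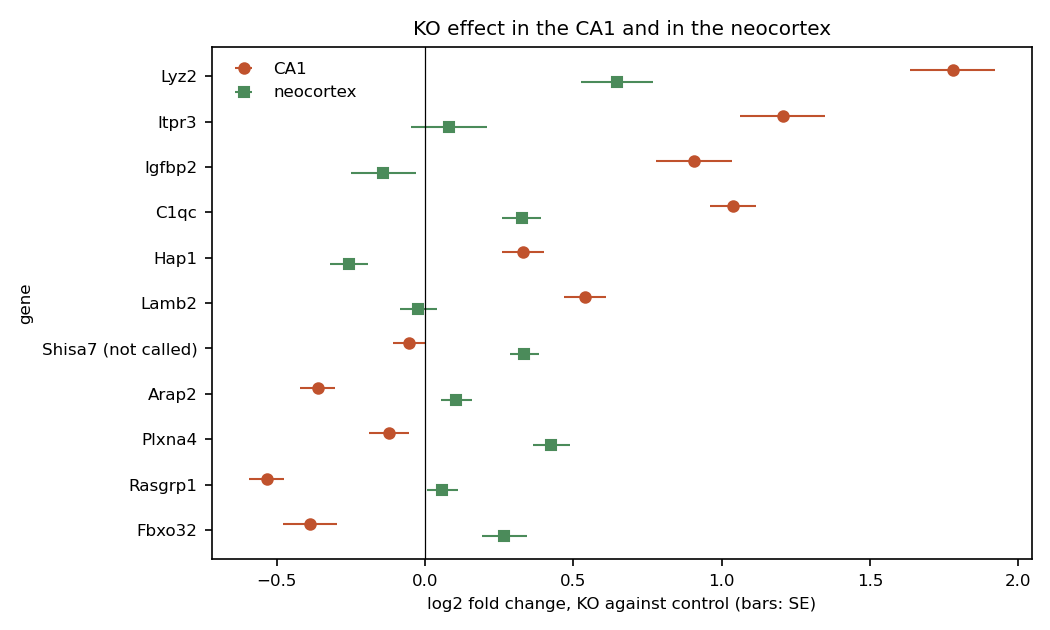
Log2 fold changes, KO against control, in the CA1 (orange circles) and the neocortex (green squares) with bars of 1 SE. The genes are 6 positive and 5 negative differences of smallest p among those averaging at least 1 CPM in both tissues. Lyz2 stands at 1.78 against 0.65 and Rasgrp1 at -0.53 against 0.058, and Shisa7 did not pass.

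The gene groups described above were set side by side in the same fit. Myelin genes had a median effect of -0.44 in the CA1 and -0.094 in the neocortex, and 12 of 18 differences had an unadjusted p under 0.05 while edgeR called 0 after adjustment. Meningeal fibroblast markers stood at 1.29 and 0.14, with 6 of 13 at an unadjusted p under 0.05 and 0 called, and CA1 pyramidal markers at -0.47 and -0.11, with 5 of 11 and 0 called. Cholesterol synthesis genes had nearly equal medians, -0.21 in the CA1 and -0.21 in the neocortex, with 2 of 24 at an unadjusted p under 0.05 and 0 called.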

How the data were processed

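The authors deposited whole-number counts of reads per Ensembl gene for all 11 libraries. The submitters' processing notes name GRCm38, FastQC, GSNAP, SAMtools and bedtools. For the counting rule and strand setting, nothing is given in the sources used here. Left out were 92 ERCC spike-in rows, all at 0 in the CA1 libraries, and 406 sex-linked genes. Names, exons and 3′ UTRs came from GENCODE M21, which held 37693 of 39017 identifiers, and miRNA sequences came from RefSeq on GRCm38.

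Counts of the 5 CA1 libraries were tested with edgeR 4.0.16 in R 4.3.3 (TMM, filterByExpr, robust quasi-likelihood F-test, Benjamini-Hochberg adjustment over all genes tested, threshold 0.05). Log2 fold changes are KO minus control. The interaction used all 11 libraries. The labels show that 4 mice gave both tissues. Deviations from the group means in the same mouse correlated at 0.14, 0.143, 0.193 and 0.214, and those of different mice at -0.236 to 0.0394. With so few libraries per group, centring on the group means ties these values to each other. They are therefore not independent, and the pairing rests on the labels. Replicates differed by more than sampling noise, with a chi-square of 9.98 to 22.1 per gene. The scripts were tested on simulated data. In the CA1 fit 66% of 1.5-fold and 87% of 3-fold changes were recovered, with 20 false calls. For the interaction 38% and 77% were recovered, with 6 false calls, so many differences of 1.5-fold between the tissues would be missed.

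Named genes were the 14 largest rises and falls averaging at least 10 CPM with no overlap, up to 4 members of smallest p per list, up to 3 per miRNA family and 6 per sign of the interaction. Those of the interaction were taken among genes averaging at least 1 CPM in both tissues. A few genes are not reported here. Others, mostly members that did not pass, were named after their values were seen. Members and lists were chosen with earlier results of these data known, so lists are described by counts and medians and not tested. Alternatives were DESeq2 1.42.0, RLE size factors, library totals, other low-count filters, the spread of all 11 libraries, 7mer matches, the shortest UTR and each library left out.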

Additional observations from a re-analysis of the deposited data

Results flagged for a closer look

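The KO effect differed between the CA1 and the neocortex for 10 of the 11 genes given here, tested as the difference itself. These genes were taken for the smallest p of each sign in the interaction fit, and the count of 10 follows from that choice. Over all genes the difference passed for 17 of 19241 (0.0884%). The KO effect was more positive in the CA1 for C1qc by 0.7124, Hap1 by 0.5836, Igfbp2 by 1.046, Lyz2 by 1.133, Lamb2 by 0.5616 and Itpr3 by 1.125 on the log2 scale. It was more negative there for Rasgrp1 at -0.5927, Arap2 at -0.4682, Plxna4 at -0.5474 and Fbxo32 at -0.6546. Adjusted p by edgeR ran from 0.0133 for Rasgrp1 to 0.0421 for Fbxo32. With animal as a replicate block the adjusted p was 0.0506 for Fbxo32, and the other 9 genes passed. The tissues were made with different library kits, whose part in these differences was not tested.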

How the results depend on the processing

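Of the CA1 calls, 459 higher and 277 lower, DESeq2 gave 475 and 423, and testing with no filter on low counts gave 858 and 611. With 1 library left out the range was 169 to 455 higher and 69 to 304 lower. The differences between tissues, 11 more positive and 6 more negative, were 34 and 73 with animal as a replicate block, which follows the pairing of tissues within 4 mice, and 11 and 10 with RLE size factors. With 1 library left out they were 0 to 19 and 0 to 13. The cause of these shifts was not tested. No direction reversed among the called results and alternatives that were run. Among single genes, lists and miRNA families, 1266 values stayed as reported under other settings, 101 moved, 19 lost and 2 gained a call, and with 1 library left out 1042 stayed, 172 moved, 147 lost and 1 gained a call. The let-7 median of 0.021 was 0.014 with 7mer matches and 0.042 with the shortest UTR, and that of miR-29 was 0.0057 and 0.041. Where leaving out a KO library left 1 mouse, that mouse was assumed to vary like the controls. Depth limits the low genes, and those under 1 CPM gave 23 higher and 6 lower calls of 2757 tested.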

Other observations

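Genes of general upkeep gave few calls. Over all 18312 genes tested, 3188 had an unadjusted p under 0.05. Of 31 constitutive proteasome genes, 44 cytosolic ribosomal protein genes and 38 nuclear oxidative phosphorylation genes edgeR called 0, with medians of -0.07, 0.037 and -0.071. At an unadjusted p under 0.05 stood 1, 1 and 6 of these, and DESeq2 called 0, 0 and 0. Of 17 cell division genes edgeR and DESeq2 called 0 and 0 had an unadjusted p under 0.05, with a median of 0.35, which was -0.12 without D5133 and 0.86 without D5130. Of 31 genes of the p53 response and cell death 2 rose, Trp53inp1, a p53 target, at 0.48 (SE 0.100, adjusted p by edgeR = 0.0159) and Gsdmd, a pore-forming protein of pyroptosis, at 1.01 (SE 0.22, adjusted p by edgeR = 0.0186), and the count was 4 without D5135, 0 without D5138 or D5133 and 1 without D5130, and 6 with library totals. The cystine transporter Slc7a11, a target of the stress factor ATF4, was read at 41.4, 45.3 and 41.8 CPM in control mice and 63.3 and 79.2 CPM in KO mice, a change of 0.73 (SE 0.091, adjusted p by edgeR = 0.000658). Of 24 genes of endoplasmic reticulum stress and ATF4, 1 rose and 0 fell, with a median of 0.067, or -0.050 without D5133. They summed to 1773 to 2118 CPM in control mice and 1796 to 2185 CPM in KO mice.

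Secreted Wnt genes moved in both directions. Of 25 tested, 3 fell and 1 rose, and the rise was lost without D5130, D5133 or D5138. The antagonist Dkk3 was read at 448, 501 and 527 CPM in control mice and 392 and 389.9 CPM in KO mice, a change of -0.33 (SE 0.066, adjusted p by edgeR = 0.0114), and its call held in 2 of the 5 fits that left out 1 library. Ependymal markers, of the cells that line the ventricle, had a median of -0.75, or -0.42 for those with a mean of at least 1 CPM, with 0 called by edgeR, 0 by DESeq2 and 4 of 6 at an unadjusted p under 0.05, and summed to 10.4 to 13.8 CPM in control mice and 8.14 to 8.93 CPM in KO mice.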
